A study of Homo sapiens with 18 samples.

Results

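The interferon response and antigen presentation genes described here are a list of 50 genes chosen by name, and 49 of them had a row among the 17026 endogenous gene rows of the deposited table. SAMD9, the remaining name, was not analysed here. By the known role of their products, the 49 members comprise 8 antigen presentation genes, 18 antiviral effectors, 6 genes of ISG15 conjugation and related ubiquitin or ADP-ribose enzymes, 6 cytokine receptor chains and Janus kinases, 6 STAT and interferon regulatory factors, and 5 RNA sensors or adaptors.

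Poly(A) RNA of BxPC3, MiaPaCa-2 and PANC1, 3 established human lines of pancreatic ductal adenocarcinoma, was sequenced. Each line was exposed to 100 nM THZ1, a covalent inhibitor of the transcriptional kinase CDK7, or to the solvent DMSO alone, for 6 h, with 3 libraries for each line and treatment (18 in all). All cells, treated or not, grew in F12 medium with serum, β-glycerophosphate and ascorbic acid, and no interferon is named in the labels. Each tumour is represented by 1 line, the labels do not say whether the 3 libraries of a group came from separate cultures, and the p-values therefore measure the spread between these libraries, which may be technical.

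Interferons act through receptors on the cell surface. Type I interferons bind IFNAR1 and IFNAR2, the associated kinases JAK1 and TYK2 then phosphorylate STAT proteins, and STAT2 joins IRF9 in a complex that binds interferon-stimulated response elements in the promoters of antiviral genes. Interferon gamma acts through IFNGR1 and IFNGR2 and induces IRF1, which drives genes of the class I pathway. In that pathway, peptides enter the endoplasmic reticulum through the TAP transporter and are loaded onto HLA heavy chains paired with B2M, which is how tumour cells are seen by CD8 T cells.

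The values are the authors' reads divided by 1 whole number per library, brought here to a mean library sum of 1e+06 and called normalised read counts. Differences are THZ1 minus DMSO on the log2(normalised read count + 1) scale, with the standard error (SE) from a limma-trend fit of all 15354 genes that reached 1 in at least 3 libraries. A gene was called at a Benjamini-Hochberg adjusted p under 0.05 over all those genes. All 49 members passed this minimum. The libraries also held ERCC spike-in RNA, added to the extracted total RNA, and its summed normalised count was 5043 to 5768 in THZ1-treated and 2111 to 2495 in DMSO-treated BxPC3 cells. In MiaPaCa-2 the sums were 3890 to 5398 with THZ1 and 1709 to 1923 with DMSO, and in PANC1 they were 2199 to 3096 with THZ1 and 1962 to 2580 with DMSO.

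The choice of scale moved every gene together. The median difference of all genes was 0.25 in BxPC3, 0.19 in MiaPaCa-2 and -0.07 in PANC1 as deposited, and -0.65, -0.86 and -0.31 in the same lines once each library was divided by its ERCC sum. Whether the lower ERCC-scaled values reflect less messenger RNA per cell, fewer cells or a different amount of RNA taken cannot be told apart. Values below are on the deposited scale unless the ERCC scale is named.

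Total reads per library were between 6352482 and 20910423. The lowest total belonged to DMSO replicate 1 of PANC1, which also stood apart from its group: its residuals (log2) had an SD of 0.52, while no other library exceeded 0.31. The calls within PANC1, the counts of the contrasts with PANC1 and the named differences in them are therefore also given without it. All groups share an estimate of the spread, so this library also bears on the calls in the other lines. Without it, 49.8% of all genes were called higher and 24% lower in BxPC3, and 46.6% and 25.4% in MiaPaCa-2. A member not called there is therefore not shown to be unchanged. Epithelial markers were present in all lines but uneven. Summed normalised counts of the 6 epithelial and ductal markers with a row were 8440 to 8820 with THZ1 and 4390 to 4760 with DMSO in BxPC3. The sums were 3610 to 3940 and 1720 to 1820 in MiaPaCa-2, and 2580 to 3220 and 2320 to 4060 in PANC1. Single markers had no common order: CDH1, KRT7 and KRT19 were highest in BxPC3, and KRT8, KRT18 and MUC1 were not. The cadherin CDH1 averaged 0.161 with THZ1 and 0.179 with DMSO in MiaPaCa-2 and 2.98 with THZ1 and 3.31 with DMSO in PANC1. KRT8 measured 1470, 1400 and 1400 in DMSO-treated MiaPaCa-2 cells, against 659, 713 and 737 in BxPC3 cells. The 2 of 7 leukocyte markers with a row summed to 1.78 to 7.26 over all libraries. Genes of these lists without a row were not analysed here.

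In BxPC3, 22 of the 49 members (44.9%) were higher with THZ1 and 20 (40.8%) were lower, against 40% of all genes tested called higher and 18.9% called lower. In MiaPaCa-2, 20 members (40.8%) were higher and 14 (28.6%) lower, against 36.5% and 19.8% of all genes. In PANC1, 1 member (2.04%) was higher and none was lower by limma, against 0.274% and 0.228% of all genes. At an unadjusted p under 0.05, PANC1 had 7 members higher and 1 lower. On the recovered reads, edgeR and DESeq2 called 0 and 4 members higher there, against 0.0456% and 2.44% of all genes, and none lower. The median member difference was 0.14 in BxPC3, 0.20 in MiaPaCa-2 and 0.08 in PANC1. Scaling by TMM gave 18 members higher and 22 lower in BxPC3 and 16 and 15 in MiaPaCa-2, against 25.8% and 28.1% of all genes in BxPC3 and 26% and 25.9% in MiaPaCa-2. Scaling to equal library sums gave 8 and 29, and 9 and 22, against 9.21% and 43%, and 9.35% and 43.1% of all genes. On the ERCC scale, no member was called higher in any line, at an adjusted or an unadjusted p. Of all genes, only 1.28%, 1.36% and 0.0323% were called higher on that scale in BxPC3, MiaPaCa-2 and PANC1. The lack of higher members, here and in the gene groups below, is therefore near the share of all genes. In the same lines 34, 35 and 1 members were called lower on that scale, where 59.1%, 73.9% and 18.4% of all genes were lower. The THZ1 and DMSO libraries did not overlap for 24 members on the higher and 21 on the lower side in BxPC3, for 23 and 16 in MiaPaCa-2, and for 6 and 2 in PANC1. Over all genes, the share without overlap was 76.1% in BxPC3, 73.8% in MiaPaCa-2 and 17.1% in PANC1.

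**Figure D1:**
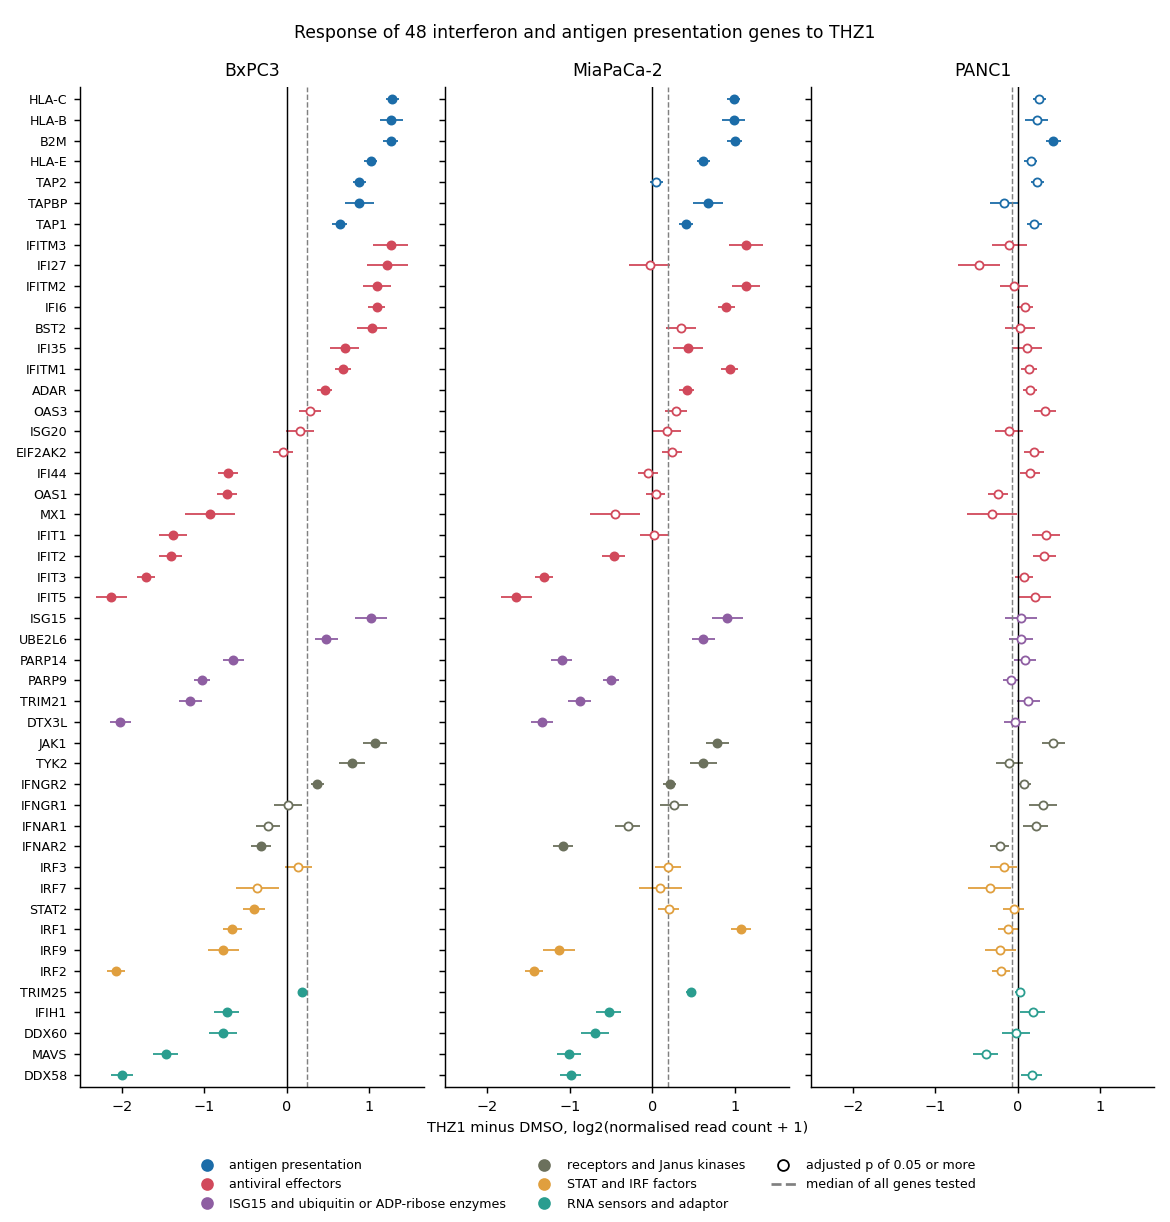
Difference between THZ1 and DMSO cells of 48 members in 3 lines, on the log2(normalised read count + 1) scale, with bars of 1 SE (3 libraries per group, limma). Filled points have an adjusted p under 0.05, and the dashed line is the median of all genes tested. Antigen presentation genes lie to its right in BxPC3 and, apart from TAP2, in MiaPaCa-2. RNA sensors lie mostly to its left in BxPC3 and MiaPaCa-2 and mostly to its right in PANC1, where 1 point is filled, B2M.

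The antigen presentation genes were the role group with the highest median difference in both responding lines. All 8 were called higher in BxPC3, with a median difference of 1.14, and 7 of 8 in MiaPaCa-2, with a median of 0.84. Scaled to ERCC, those medians were -0.05 and -0.45, none was called higher, and 1 member in BxPC3 and 4 in MiaPaCa-2 were called lower. Their place above the median gene held on either scale in BxPC3, for 8 of 8 members, and in MiaPaCa-2 for 7 of 8 on the deposited and 6 of 8 on the ERCC scale.

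HLA-B and HLA-C are heavy chains that present peptides to CD8 T cells. HLA-C measured 313, 297 and 308 normalised read counts in the THZ1 libraries of BxPC3, against 119, 126 and 131 in its DMSO libraries. In MiaPaCa-2 it measured 122, 115 and 115 with THZ1, against 59.2, 60.2 and 56.3 with DMSO. In PANC1 the values were 123, 103 and 110 with THZ1 and 102, 92.6 and 85.9 with DMSO. Every THZ1 library lay above every DMSO library of its line, by a narrow margin in PANC1. The difference was 1.28 ± 0.08 (SE) in BxPC3, with an adjusted p of 2.07e-09 by limma, and 0.99 ± 0.08 in MiaPaCa-2, with an adjusted p of 5.07e-08, and on the ERCC scale it was 0.09 and -0.29. In PANC1 it was 0.26 and was not called (adjusted p = 0.114).

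HLA-B measured 32.5, 38.6 and 35 in THZ1-treated BxPC3 cells, against 12.3, 16.9 and 13.4 in DMSO cells. MiaPaCa-2 cells had 137, 127 and 140 with THZ1, against 67.1, 63.6 and 71.5 with DMSO. The groups did not overlap in either line, while in PANC1 the values of 44.6, 36.4 and 40 with THZ1 and 44.4, 29.7 and 30.2 with DMSO did. The HLA-B difference was 1.27 ± 0.14 in BxPC3 and 0.99 ± 0.14 in MiaPaCa-2, with ERCC values of 0.13 and -0.29. Class I heavy chain genes are close paralogs and highly polymorphic, so reads may have been shared or lost between them, and how the authors' counting treated such reads is not given in the sources used here.

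B2M, the light chain common to all class I molecules, measured 1960, 1900 and 1870 in THZ1-treated BxPC3 cells, against 786, 803 and 799 in DMSO cells. The MiaPaCa-2 libraries held 280, 293 and 306 with THZ1, against 145, 143 and 150 with DMSO. In PANC1 it measured 366, 346 and 368 with THZ1, against 226, 291 and 292 with DMSO. The groups were apart in all 3 lines, and DMSO replicate 1 of PANC1 was the lowest library of that line. The differences were 1.26 ± 0.09 in BxPC3, 1.00 ± 0.09 in MiaPaCa-2 and 0.43 ± 0.09 in PANC1, with adjusted p-values of 4.19e-09, 8.03e-08 and 0.0472 by limma. B2M was the only member called in PANC1, and that call depended on the libraries and the scale: without DMSO replicate 1 the difference was 0.30 with an adjusted p of 0.001, but leaving out any one of the 15 libraries outside the PANC1 DMSO group, ERCC scaling (0.14), TMM scaling or edgeR ended the call. With ERCC scaling, B2M differed by 0.07 in BxPC3 and -0.29 in MiaPaCa-2, and neither was called.

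HLA-E, a non-classical class I molecule recognised by natural killer cells, was higher by 1.02 in BxPC3 and 0.62 in MiaPaCa-2, with ERCC values of -0.16 and -0.67, the second of them called lower. TAPBP, or tapasin, which holds empty class I molecules next to the peptide transporter, was higher by 0.88 and 0.68 in the same lines. Its ERCC values were -0.31 and -0.61, the second of them called lower. TAP1 and TAP2 form the transporter. TAP1 was higher by 0.64 in BxPC3 and 0.41 in MiaPaCa-2, with ERCC values of -0.52 and -0.86, both called lower. TAP2 parted from it in MiaPaCa-2, with 122, 116 and 115 in THZ1 cells, against 110, 118 and 113 in DMSO cells, while in BxPC3 it measured 181, 181 and 177 with THZ1, against 95.5, 100 and 96.3 with DMSO. The groups overlapped in MiaPaCa-2, where the difference was 0.05 with no call and the ERCC value was -1.23 and called lower, and were far apart in BxPC3. The TAP2 response was lower in MiaPaCa-2 than in BxPC3 by 0.83 (difference of -0.83 ± 0.11, adjusted p = 0.000121 by limma, and -0.93 on the ERCC scale).

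**Figure D2:**
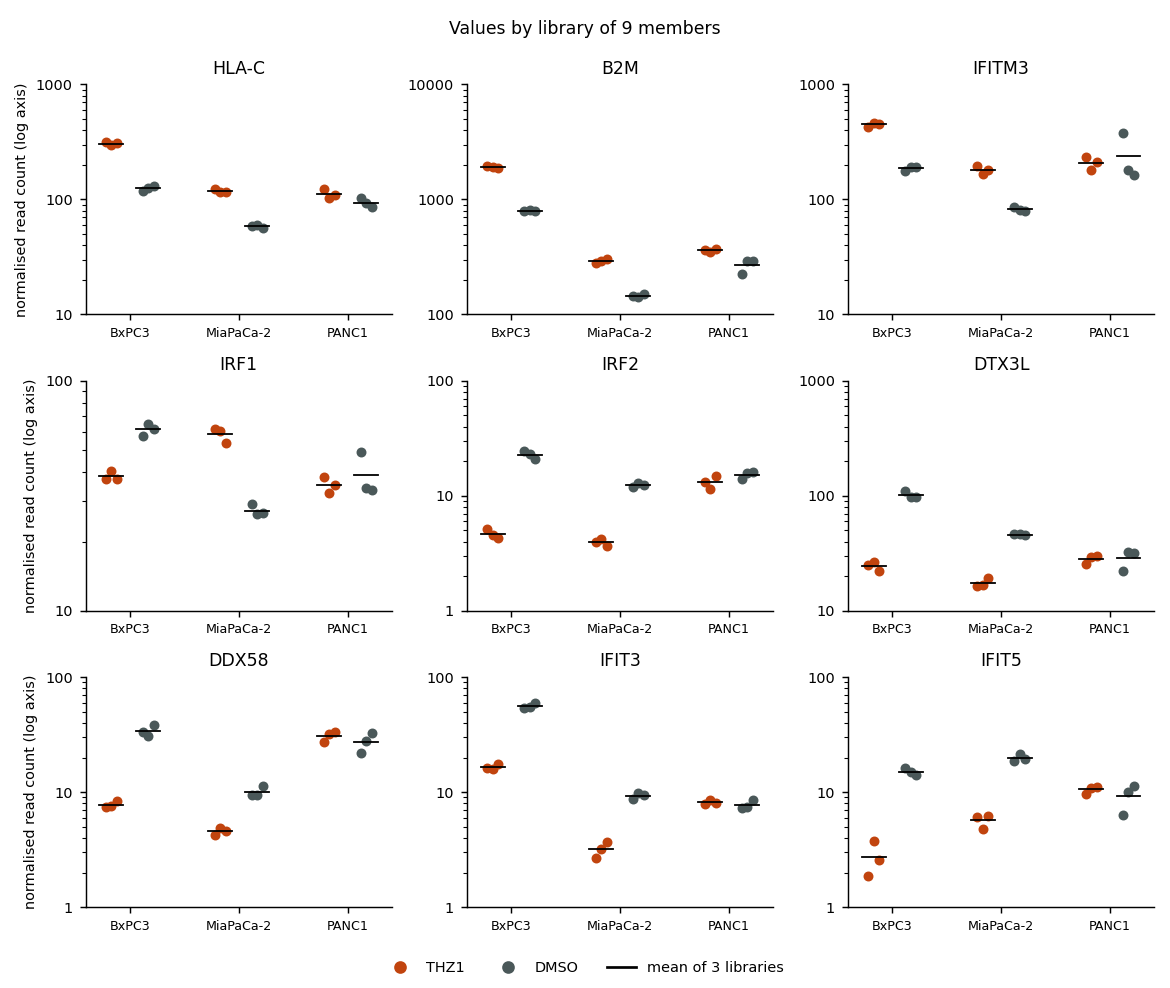
Normalised read counts of 9 members in each library (log axis), THZ1 beside DMSO in 3 lines, with the mean of 3 libraries as a bar. HLA-C, B2M and IFITM3 lie higher with THZ1 in BxPC3 and MiaPaCa-2, IRF2, DTX3L, DDX58, IFIT3 and IFIT5 lie lower there, IRF1 lies lower in BxPC3 and higher in MiaPaCa-2, and the PANC1 groups overlap for every gene shown but B2M and HLA-C.

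The antiviral effectors held members called in both directions. In BxPC3, 8 of 18 were called higher and 7 lower, and in MiaPaCa-2 6 were higher and 3 lower. The share higher in BxPC3 and both shares in MiaPaCa-2 were near those of all genes. Scaled to ERCC, none was called higher and 12 and 11 were called lower in those lines. In PANC1 none of the 18 was called.

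IFITM1, IFITM2 and IFITM3 are small membrane proteins that hinder the entry of enveloped viruses. IFITM3 measured 427, 462 and 456 in THZ1-treated BxPC3 cells, against 175, 190 and 193 in DMSO cells. MiaPaCa-2 cells had 197, 167 and 181 with THZ1, against 85.8, 80.2 and 79.4 with DMSO. No THZ1 library of those lines came within the DMSO range, while in PANC1 the values of 235, 179 and 212 with THZ1 and 377, 180 and 163 with DMSO overlapped. The IFITM3 difference was 1.26 ± 0.21 in BxPC3, with an adjusted p of 7.48e-05, and 1.14 ± 0.21 in MiaPaCa-2, with an adjusted p of 0.000228 (limma). IFITM2 measured 79.1, 67.7 and 72.6 in THZ1-treated MiaPaCa-2 cells, against 37.3, 29.8 and 31.4 in DMSO cells. It was higher by 1.14 there and by 1.10 in BxPC3, and IFITM1 was higher by 0.94 and 0.68 in those lines. On the ERCC scale IFITM3 and IFITM2 lay between -0.15 and 0.08 in both lines with no call, and IFITM1 was at -0.30 in MiaPaCa-2 and called lower, at -0.46, in BxPC3. The 3 genes are neighbours with similar sequences, so reads may have been shared between them.

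The other effectors that were higher in both lines were IFI6, a membrane protein that limits flavivirus replication, by 1.09 in BxPC3 and 0.90 in MiaPaCa-2, and ADAR, which edits adenosine to inosine in double-stranded RNA, by 0.46 and 0.42, and IFI35 by 0.70 and 0.43. Their ERCC values were all below 0, from -0.09 to -0.88, and ADAR was called lower there in both lines and IFI35 in MiaPaCa-2. The IFI35 call in MiaPaCa-2 (adjusted p = 0.0493 by limma) was lost with no minimum (0.0541), with TMM and when any one of 15 of the 18 libraries was left out. BST2, or tetherin, which holds budding virions at the cell surface, measured 165, 180 and 166 in THZ1-treated BxPC3 cells, against 74.2, 89.5 and 86.3 in DMSO cells, a difference of 1.03 ± 0.18 (-0.15 on the ERCC scale). IFI27, a mitochondrial protein and a sensitive marker of type I interferon exposure, measured 617, 632 and 632 with THZ1 in that line, against 257, 272 and 281 with DMSO, a difference of 1.22 ± 0.25 (0.03 on the ERCC scale). Both genes were far lower in the other 2 lines, and IFI27 passed the minimum only through BxPC3.

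The IFIT family, whose products bind viral RNA and block its translation, included several of the deepest falls. IFIT5 measured 1.87, 3.78 and 2.58 in THZ1-treated BxPC3 cells, against 16.1, 15.1 and 14.1 in DMSO cells. In MiaPaCa-2 it measured 6.05, 4.82 and 6.21 with THZ1, against 18.7, 21.4 and 19.5 with DMSO. In PANC1 it measured 9.67, 10.9 and 11.2 with THZ1 and 6.31, 9.96 and 11.4 with DMSO. The groups were well apart in BxPC3 and MiaPaCa-2 and overlapped in PANC1. IFIT5 fell by 2.13 ± 0.19 in BxPC3 and by 1.65 ± 0.19 in MiaPaCa-2, with adjusted p-values of 7.58e-08 and 1.82e-06 by limma, and its difference ranked at percentile 0.541 and 1.07 of all genes in those lines. The pseudocount of 1 understates falls to such low values.

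IFIT3 measured 16.2, 15.8 and 17.7 in THZ1-treated BxPC3 cells, against 54.2, 55.1 and 60 in DMSO cells. MiaPaCa-2 cells had 2.66, 3.21 and 3.68 with THZ1, against 8.66, 9.81 and 9.55 with DMSO. The 2 groups lay apart in each line although the DMSO level was lower in MiaPaCa-2. The fall was 1.71 ± 0.11 on the log2 scale in BxPC3 and 1.31 ± 0.11 in MiaPaCa-2. In PANC1, at 7.95, 8.64 and 8.11 with THZ1 and 7.26, 7.46 and 8.61 with DMSO, IFIT3 overlapped, and the response was higher in PANC1 than in BxPC3 by 1.79 ± 0.15 (adjusted p = 5.79e-07) and than in MiaPaCa-2 by 1.39 ± 0.15 (adjusted p = 1e-05, limma).

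IFIT1 separated the responding lines. It measured 13.9, 12.5 and 12.4 in THZ1-treated BxPC3 cells, against 36.7, 36.7 and 32.7 in DMSO cells. The MiaPaCa-2 libraries held 8.52, 8.13 and 7.68 with THZ1, against 8.7, 8.14 and 7.19 with DMSO. Thus it fell in every BxPC3 library and overlapped in MiaPaCa-2. The difference was -1.38 ± 0.17 in BxPC3 and 0.02 ± 0.17 in MiaPaCa-2 on the deposited scale, and -2.48 and -1.13 on the ERCC scale, where both were called lower. The response was higher in MiaPaCa-2 than in BxPC3 by 1.40 ± 0.25 (adjusted p = 0.00125 by limma, and 1.35 on the ERCC scale). IFIT2 fell by 1.41 in BxPC3 and 0.47 in MiaPaCa-2, the second no longer called without THZ1 replicate 3 of that line (adjusted p = 0.0514 by limma). The IFIT genes are a cluster of paralogs, so reads could be shared among them as well.

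Of the remaining effectors, MX1, a GTPase that traps viral nucleocapsids, fell by 0.93 in BxPC3, OAS1, which makes the oligoadenylates that switch on RNase L, by 0.73, and IFI44 by 0.71, all 3 also lower on the ERCC scale. In MiaPaCa-2, OAS1 and IFI44 had 1 to 6 reads in each library, too few for a fall to be detectable, and MX1 had -0.45 without a call. OAS3, a further oligoadenylate synthetase, had a difference of 0.28 in BxPC3 and 0.29 in MiaPaCa-2. ISG20, an exonuclease, had 0.16 and 0.18, and EIF2AK2, the kinase PKR that arrests translation, -0.05 and 0.24. None of these was called as deposited, and all 3 were called lower in both lines on the ERCC scale, at -0.87 to -1.23.

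Within the ISG15 and ubiquitin group, the same 4 members fell and the same 2 were higher in BxPC3 and MiaPaCa-2. DTX3L, a ubiquitin ligase that works with PARP9, measured 24.8, 26.6 and 22 in THZ1-treated BxPC3 cells, against 111, 97 and 98.4 in DMSO cells. In MiaPaCa-2 it measured 16.5, 16.9 and 19.4 with THZ1, against 46.5, 46.3 and 45.4 with DMSO. Every THZ1 library of both lines lay far below its DMSO libraries. In PANC1 the values of 25.6, 29.2 and 29.7 with THZ1 and 22.3, 32.8 and 32.1 with DMSO overlapped. DTX3L fell by 2.02 ± 0.13 in BxPC3 (adjusted p = 2.07e-09) and by 1.34 ± 0.13 in MiaPaCa-2 (adjusted p = 2.38e-07, limma), and its response was higher in PANC1 than in MiaPaCa-2 by 1.32 ± 0.18 (adjusted p = 5.73e-05).

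The ADP-ribosyl transferase family members PARP9 and PARP14 fell by 1.03 and 0.65 in BxPC3 and by 0.50 and 1.10 in MiaPaCa-2. TRIM21, a cytosolic antibody receptor and ubiquitin ligase, fell by 1.17 and 0.88 in those lines. ISG15, the ubiquitin-like modifier itself, was higher by 1.02 in BxPC3 and 0.91 in MiaPaCa-2, and UBE2L6, the enzyme that conjugates it, by 0.48 and 0.62. Scaled to ERCC, ISG15 was at -0.16 and -0.27 with no call, and UBE2L6 at -0.67 and -0.59, both called lower. None of the 6 was called in PANC1.

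**Figure D3:**
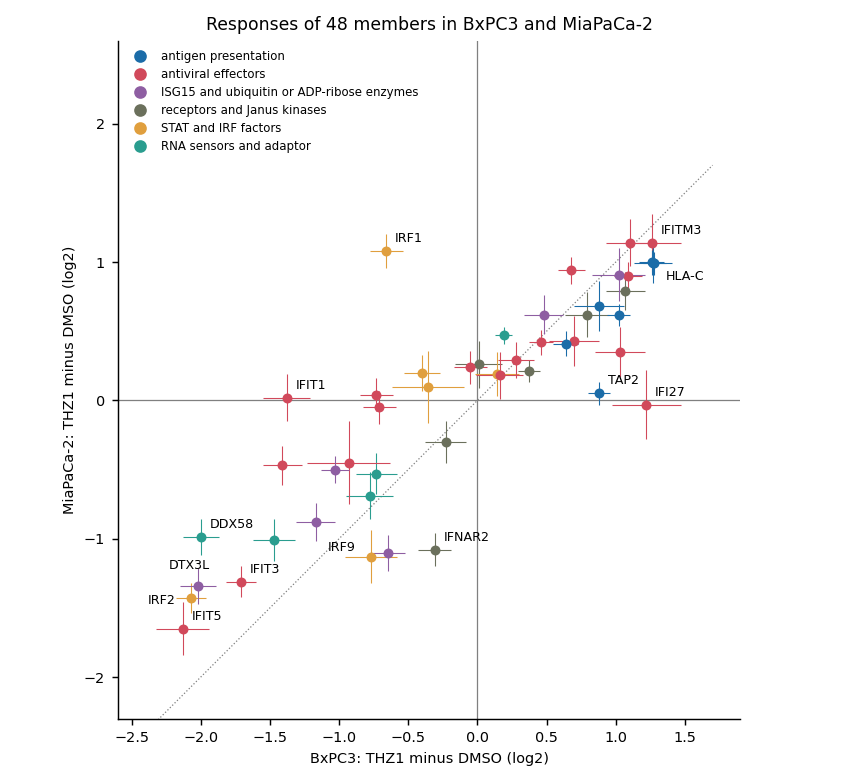
Difference between THZ1 and DMSO cells of 48 members in MiaPaCa-2 (y) against BxPC3 (x), both log2, with bars of 1 SE and the line of equality dotted. Most members lie in the lower left and upper right, and IRF1, the only member called in opposite directions, is highest in the upper left, at -0.66 in BxPC3 and 1.08 in MiaPaCa-2.

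The transcription factors were the only role group with a member called in opposite directions in 2 lines. IRF2, which competes with IRF1 for the same DNA sites, measured 5.14, 4.6 and 4.28 in THZ1-treated BxPC3 cells, against 24.5, 23.2 and 20.8 in DMSO cells. The MiaPaCa-2 libraries held 3.94, 4.2 and 3.68 with THZ1, against 11.9, 12.8 and 12.4 with DMSO. Both lines showed a clear gap between the groups, and in PANC1 the values of 13.2, 11.5 and 15 with THZ1 and 14, 15.8 and 16.1 with DMSO overlapped. IRF2 fell by 2.07 ± 0.11 in BxPC3 (adjusted p = 4.62e-10) and by 1.43 ± 0.11 in MiaPaCa-2 (adjusted p = 2.79e-08, limma). Its response was higher in PANC1 by 1.87 ± 0.16 than in BxPC3 and by 1.23 ± 0.16 than in MiaPaCa-2, with adjusted p-values of 5.32e-07 and 3.25e-05.

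IRF1, the factor induced by interferon gamma, measured 37.6, 40.6 and 37.3 in THZ1-treated BxPC3 cells, against 57.6, 65.2 and 62 in DMSO cells. MiaPaCa-2 cells had 62, 60.4 and 53.7 with THZ1, against 29.1, 26.3 and 26.5 with DMSO. In PANC1 it measured 38, 32.6 and 35.4 with THZ1, against 49.1, 34.1 and 33.5 with DMSO. The groups were apart in opposite directions in BxPC3 and MiaPaCa-2 and overlapped in PANC1. IRF1 fell by 0.66 ± 0.12 in BxPC3 (adjusted p = 0.000189) and was higher by 1.08 ± 0.12 in MiaPaCa-2 (adjusted p = 1.58e-06), where the ERCC scale gave -0.19 with no call. The response was higher in MiaPaCa-2 than in BxPC3 by 1.74 ± 0.17 (adjusted p = 8.63e-06 by limma) and by 1.63 on the ERCC scale.

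STAT2 and IRF9 are subunits of the complex that binds response elements after type I interferon. STAT2 measured 53.7, 58.3 and 52 in THZ1-treated BxPC3 cells, against 69.1, 71.3 and 77.2 in DMSO cells, a fall of 0.40 ± 0.13 that was no longer called without DMSO replicate 3 (adjusted p = 0.0527 by limma). In MiaPaCa-2 it measured 24.5, 22 and 26.1 with THZ1, against 21.5, 20.1 and 21.4 with DMSO, and in PANC1 30.7, 27.2 and 28.7 with THZ1, against 39.5, 26.8 and 25.4 with DMSO. The MiaPaCa-2 groups did not overlap, the PANC1 groups did, and neither difference was called. With ERCC scaling STAT2 was called lower in MiaPaCa-2, at -1.04 against 0.20 as deposited. IRF9 was scarce throughout, at 2.1, 3.29 and 3.55 with THZ1, against 5.83, 5.97 and 5.36 with DMSO in BxPC3. In MiaPaCa-2 IRF9 measured 0.458, 0.714 and 0.316 with THZ1, against 2.59, 2.43 and 1.83 with DMSO, and in PANC1 1.04, 0.66 and 1.34 with THZ1, against 1.89, 1.18 and 0.924 with DMSO. It lay below its DMSO range in both responding lines, falling by 0.77 ± 0.19 and 1.13 ± 0.19, and overlapped in PANC1. IRF3 and IRF7, which switch on interferon genes after virus sensing, were not called in any line as deposited, with differences of 0.14 and -0.36 in BxPC3, 0.19 and 0.10 in MiaPaCa-2 and -0.17 and -0.34 in PANC1. With ERCC scaling, both were called lower in BxPC3 and MiaPaCa-2.

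The sensors of viral RNA fell with one exception. DDX58, the helicase RIG-I, measured 7.48, 7.57 and 8.31 in THZ1-treated BxPC3 cells, against 33.6, 31 and 38.2 in DMSO cells. MiaPaCa-2 cells had 4.21, 4.91 and 4.63 with THZ1, against 9.55, 9.38 and 11.4 with DMSO. In PANC1 it measured 27.1, 32.3 and 33.1 with THZ1, against 21.8, 28.1 and 32.5 with DMSO. The gap between groups was widest in BxPC3 and absent in PANC1. DDX58 fell in BxPC3 to a mean of 7.79 ± 0.461 with THZ1, against 34.3 ± 3.62 with DMSO (SD, n = 3 each, limma adjusted p = 4.06e-09), and by 0.99 ± 0.13 in MiaPaCa-2 (adjusted p = 1.17e-05), and its response was higher in PANC1 than in BxPC3 by 2.18 ± 0.19 (adjusted p = 7.55e-07, limma).

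MAVS, the mitochondrial adaptor that RIG-I signals through, fell by 1.47 in BxPC3 and 1.01 in MiaPaCa-2. IFIH1, the sensor MDA5, fell by 0.73 and 0.53, and DDX60, a helicase that assists them, by 0.78 and 0.69. TRIM25, a ubiquitin ligase that modifies RIG-I, was higher by 0.19 in BxPC3 and 0.47 in MiaPaCa-2 as deposited and was called lower on the ERCC scale, at -0.99 and -0.82. In BxPC3 its sign also turned under TMM and DESeq2 scaling.

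The receptor group held members called in both directions. JAK1 and TYK2, the kinases of the type I receptor, were higher by 1.07 and 0.79 in BxPC3 and by 0.79 and 0.62 in MiaPaCa-2. Their ERCC values were between -0.12 and -0.67, with TYK2 called lower in both lines and JAK1 in neither. IFNAR2, the signalling chain of that receptor, fell by 0.31 in BxPC3 and by 1.08 in MiaPaCa-2, and the BxPC3 call was lost when any of 4 BxPC3 libraries was left out. The IFNAR2 response was lower in MiaPaCa-2 than in BxPC3 by 0.77 (-0.77 ± 0.17, adjusted p = 0.00659 by limma), a call lost on the ERCC scale at the same value. IFNAR1 had -0.23 and -0.30 in the 2 lines, and IFNGR1, the ligand-binding chain of the interferon gamma receptor, 0.01 and 0.26, none of them called. With ERCC scaling all 4 values were called lower, at -1.38 and -1.57 for IFNAR1 and at -1.16 and -0.97 for IFNGR1. IFNGR2 was higher by 0.37 and 0.21, with ERCC values of -0.77 and -1.06, both called lower, and its MiaPaCa-2 call was lost when any of 5 MiaPaCa-2 libraries was left out.

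Across the 49 members, 19 were called higher in both BxPC3 and MiaPaCa-2, 14 lower in both, and 1, IRF1, in opposite directions. A further 3 were called higher and 5 lower in BxPC3 with no call in MiaPaCa-2, and 7 were called in neither. The 2 lines' differences, which share no control library, correlated over the members with r = 0.859 and rho = 0.848 (n = 49 genes, which are not independent), against r = 0.771 and rho = 0.773 over all 15354 genes.

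**Figure D4:**
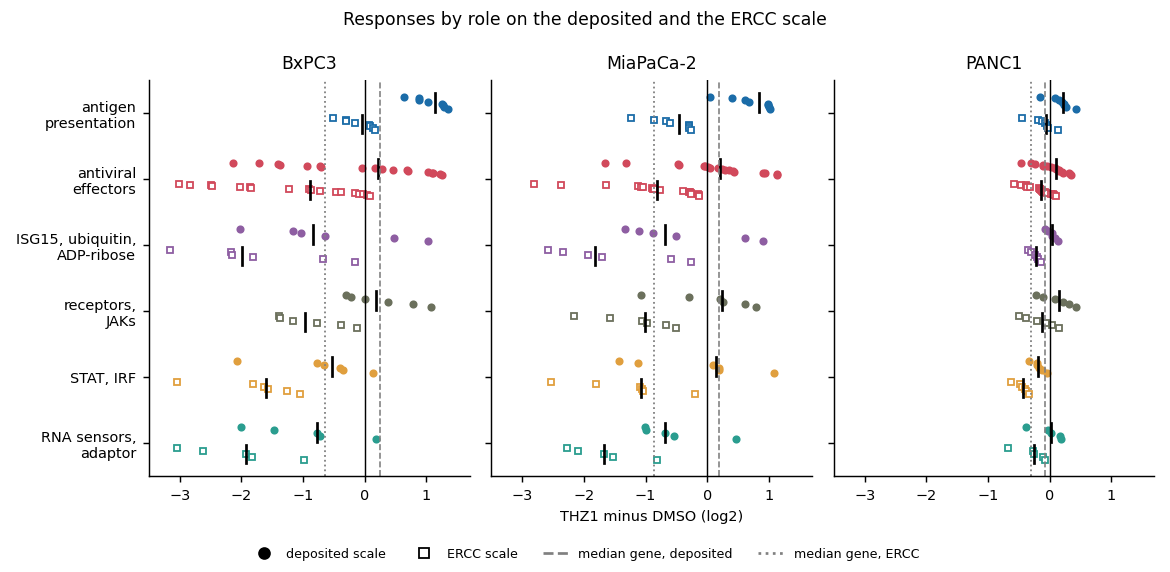
Differences between THZ1 and DMSO cells (log2) of the members by role, on the deposited scale (filled circles) and the ERCC scale (open squares), with role medians as black bars and the median of all genes as grey lines. Moving to the ERCC scale shifts all roles to the left together, and the antigen presentation medians stay to the right of the median gene, at -0.05 in BxPC3 and -0.45 in MiaPaCa-2.

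The responses of individual members were also compared between lines. Between MiaPaCa-2 and BxPC3, 11 members had a higher and 4 a lower response in MiaPaCa-2 (22.4% and 8.16% of 49), against 6.14% and 7.66% of all genes. Between PANC1 and BxPC3, 16 had a higher and 17 a lower response in PANC1, against 11.9% and 30.8% of all genes. Between PANC1 and MiaPaCa-2 the counts were 14 and 15, against 11.6% and 27.4%. Response contrasts that name the same line share its libraries. IFI27, IFI44 and OAS1 are among the members counted, although they reached the minimum only through BxPC3. Their response differences from BxPC3 follow the change in BxPC3 and lend these counts no weight. On the ERCC scale the counts were 4 higher and 1 lower, 26 and 0, and 26 and 0, against 2.48% and 5.28%, 28.6% and 1.54%, and 41.8% and 1.54% of all genes, with 0 lower at an unadjusted p under 0.05 in the contrasts with PANC1. Without DMSO replicate 1 of PANC1, the count between MiaPaCa-2 and BxPC3 was 24 in place of 15, and those with PANC1 were 19 higher and 20 lower against BxPC3 and 15 and 17 against MiaPaCa-2. Of all genes, 14.9% were then called higher and 20.9% lower between MiaPaCa-2 and BxPC3. The shares were 17% and 39.8% between PANC1 and BxPC3, and 17.6% and 35.9% between PANC1 and MiaPaCa-2. In that fit the PANC1 response was higher than in BxPC3 by 1.81 for IRF2, 1.74 for IFIT3 and 2.02 for DDX58, and higher than in MiaPaCa-2 by 1.34 for IFIT3, 1.17 for IRF2 and 1.14 for DTX3L.

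The 11 members with a higher response in MiaPaCa-2 than in BxPC3 were 4 antiviral effectors, 3 transcription factors, 2 genes of the ISG15 and ubiquitin group and 2 RNA sensors, among them DDX58 (1.01 ± 0.19) and IFIT2 (0.94 ± 0.19), neither of which was called on the ERCC scale. OAS1 and IFI44 are among the 4 effectors although they were at the floor in MiaPaCa-2. The 8 antigen presentation genes had a lower response in PANC1 than in BxPC3 in every case, with a median of -0.94. With ERCC scaling, that median was -0.04 and none of the 8 was called. All 5 RNA sensors and adaptors had a higher response in PANC1 than in BxPC3 on the ERCC scale, and 4 of 5 as deposited. Without DMSO replicate 1 of PANC1, 6 members were called higher in PANC1 and none lower, among them B2M, HLA-B (0.41), HLA-C (0.32), HLA-E (0.26) and IFI35 (0.41). Over the whole table that fit called 854 genes higher (5.63%) and 205 lower (1.35%). Leaving out DMSO replicate 3 instead gave 6 members higher, B2M, TAP2, JAK1, IFIT1, IFIT2 and OAS3, and 1 lower, MAVS (-0.54), against 10.5% and 11.3% of all genes, so which PANC1 members were called depended on the DMSO library left out.

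In DMSO-treated cells, the lines held these genes at different levels. Of the 49 members, 29 had their highest DMSO mean in BxPC3, 11 in PANC1 and 9 in MiaPaCa-2. Compared with BxPC3, 8 members were higher and 32 lower in MiaPaCa-2, against 37.5% and 25.1% of all genes, and 11 were higher and 31 lower in PANC1, against 33.7% and 25.4%. The 49 members of these contrasts include IFI27, IFI44 and OAS1. These reached the minimum only through BxPC3, so their direction was fixed by the minimum and lends the counts no weight. Between PANC1 and MiaPaCa-2, 24 were higher and 16 lower in PANC1, against 28% and 32.8%. The median member was lower by 1.04 in MiaPaCa-2 and by 0.67 in PANC1 than in BxPC3 (differences of -1.04 and -0.67), while the median gene differed by 0.15 and 0.12. Scaled to ERCC, those contrasts held 14 higher and 28 lower, 12 and 27, and 18 and 19 members, against 49.9% and 15.3%, 34.1% and 19.6%, and 19.5% and 41.2% of all genes. Without DMSO replicate 1 of PANC1, 12 members were higher and 31 lower in PANC1 than in BxPC3, and 24 and 17 than in MiaPaCa-2. The shares of all genes were then 37.1% and 33.2%, and 29.6% and 42%.

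The widest gaps were in classical interferon-induced effectors. IFI27 measured 0.405, 0.162 and 0.177 in DMSO-treated MiaPaCa-2 cells and 2.68, 0.46 and 0.462 in PANC1 cells, against 257, 272 and 281 in BxPC3 cells. BST2 measured 1.17, 1.02 and 1.06 in MiaPaCa-2 and 2.05, 1.58 and 1.1 in PANC1, against 74.2, 89.5 and 86.3 in BxPC3. IFI44 measured 0.243, 0.323 and 0.118 in MiaPaCa-2 and 0.789, 0.766 and 0.636 in PANC1, against 54.1, 55.6 and 55 in BxPC3. BxPC3 was far above the other 2 lines in every library, and the highest IFI27 value outside it was in DMSO replicate 1 of PANC1. In MiaPaCa-2 relative to BxPC3, BST2 differed by -5.33 ± 0.18 (adjusted p = 1.18e-13 by limma). IFI27, IFI44 and OAS1 reached the minimum only through BxPC3, so that their differences of -7.77, -5.51 and -4.76 are descriptions, given with no test.

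PANC1 and MiaPaCa-2 differed most in OAS3, TRIM21 and IFITM1. OAS3 measured 54.1, 73 and 77.9 in DMSO-treated PANC1 cells, against 9.02, 9.65 and 12.3 in MiaPaCa-2 cells. TRIM21 measured 36.5, 29.9 and 30 in PANC1, against 8.01, 6.58 and 6.07 in MiaPaCa-2. IFITM1 measured 4.42, 4.45 and 3.93 in PANC1, against 18.7, 16.5 and 17.3 in MiaPaCa-2. OAS3 and TRIM21 were higher in PANC1, by 2.61 ± 0.13 and 2.07 ± 0.14, and IFITM1 was lower, at -1.81 ± 0.10 (adjusted p-values of 2.8e-11, 1.1e-09 and 1.93e-10 by limma). Without DMSO replicate 1 of PANC1 those differences were 2.76, 1.98 and -1.83. The antigen presentation genes had no common order: HLA-B was higher than in BxPC3 by 2.18 in MiaPaCa-2 and by 1.22 in PANC1, while B2M was lower than in BxPC3, at -2.44 and -1.57.

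**Figure D5:**
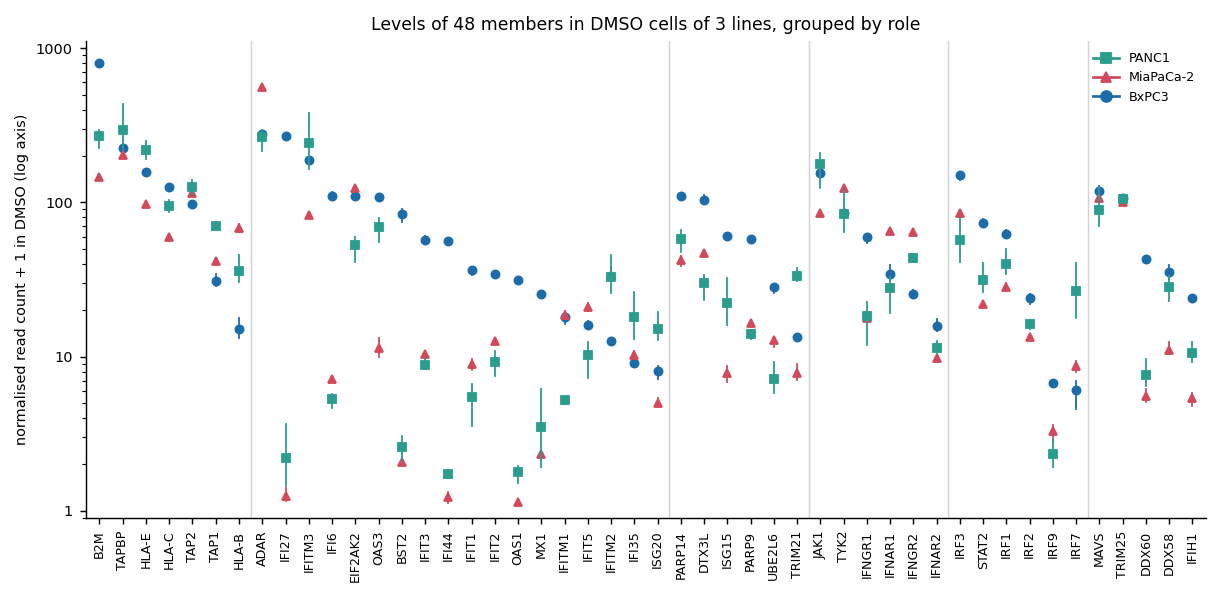
Normalised read counts plus 1 of 48 members in DMSO cells of 3 lines (log axis), grouped by role, with the mean as a point and the range of 3 libraries as a bar. IFI27, IFI44, BST2 and OAS1 are near the bottom in PANC1 and MiaPaCa-2 and far higher in BxPC3, and B2M is highest in BxPC3 while HLA-B is lowest there.

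Promoters were read in RefSeq's table for GRCh38.p14, a later build than the hg19 that the submitters' processing notes name, so the sequences are not tied to the authors' coordinates. Of the 49 members, 41 matched an entry. The interferon-stimulated response element was searched as GAAANNGAAA on both strands, with overlapping matches counted, in the window around each gene's start. It was present in 23 of 41 member promoters (56.1%) and in 1255 of all 35116 promoters in the table (3.57%). Among members lower in BxPC3 it was in 11 of 17 promoters (64.7%), and among those higher in 9 of 19 (47.4%), and in MiaPaCa-2 the shares were 72.7% of 11 lower and 35.3% of 17 higher members. The gamma-activated site, TTCNNNGAA, was in 26.8% of member promoters and 7.66% of all, and the TATA box core TATAAA in 7.32% and 11.5%. Because the members were chosen by name for this pathway, shares of interferon elements above those of all promoters may follow from that choice. They do not bear on THZ1.

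Members on both sides of the response carry such elements. The windows below, 5′ to 3′ on the gene's own strand, have the matched letters (or their reverse complement) in capitals. The first set belongs to genes that fell in BxPC3: IFIT5 on chromosome 10 (plus strand, chr10:89414498-89414563), IFIT3 (plus strand, chr10:89332410-89332469), IFIT1 (plus strand, chr10:89392482-89392541), and PARP9 on chromosome 3 (minus strand, chr3:122564307-122564366), whose stretch lies head to head with the start of DTX3L on the opposite strand, so that one element serves both windows.

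IFIT5: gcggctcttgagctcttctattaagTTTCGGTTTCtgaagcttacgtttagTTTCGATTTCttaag

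IFIT3: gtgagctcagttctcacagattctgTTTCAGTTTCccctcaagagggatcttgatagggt

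IFIT1: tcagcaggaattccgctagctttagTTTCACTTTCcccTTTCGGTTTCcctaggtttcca

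PARP9: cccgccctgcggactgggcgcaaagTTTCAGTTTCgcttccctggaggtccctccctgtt

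The second set belongs to genes that were higher in BxPC3 as deposited: ISG15 on chromosome 1 (plus strand, chr1:1013359-1013418), IFITM3 on chromosome 11 (minus strand, chr11:320878-320937), BST2 on chromosome 19 (minus strand, chr19:17405726-17405785) and B2M on chromosome 15 (plus strand, chr15:44711348-44711407).

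ISG15: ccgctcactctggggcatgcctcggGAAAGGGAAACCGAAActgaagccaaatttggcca

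IFITM3: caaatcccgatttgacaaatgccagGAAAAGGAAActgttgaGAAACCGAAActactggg

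BST2: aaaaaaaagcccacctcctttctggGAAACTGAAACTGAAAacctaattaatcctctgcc

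B2M: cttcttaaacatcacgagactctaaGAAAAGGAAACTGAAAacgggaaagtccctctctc

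The windows printed hold 2 overlapping matches each for ISG15, BST2 and B2M, 2 separate ones for IFIT5, IFIT1 and IFITM3, and 1 for IFIT3 and PARP9, and the wider promoters of IFIT5 and IFIT3 hold 3 and 2. A match is a run of letters and not a measured binding site, and the lack of a match does not show that no element is present.

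Transcript length moved with the response among the members. In GENCODE 29 the longest protein-coding transcripts of members higher in BxPC3 had a median length of 1.64e+03 bases (725 to 6700, n = 22), and those of members lower in BxPC3 3.65e+03 bases (1687 to 11714, n = 20). Over the 49 members the difference correlated with length at rho = -0.506 in BxPC3, -0.448 in MiaPaCa-2 and 0.147 in PANC1. Over the 12973 of 15354 genes (84.5%) with a length the correlations were -0.186, -0.295 and 0.0437. Their lengths were those of the longest transcript of any type, so the values for members and for all genes rest on unlike lengths. These are descriptions across genes, and the part of length in the members' responses was not tested. Summed epithelial marker counts were also higher with THZ1 in MiaPaCa-2, at 3610 to 3940, against 1720 to 1820 with DMSO. KRT8 made up most of that sum, at 3310, 3040 and 3040 with THZ1. The rise was not particular to epithelial markers. In the same line the mesenchymal markers VIM and ZEB1 summed to 2360 to 2520 with THZ1, against 1390 to 1500 with DMSO, although ZEB1 alone overlapped. Fibroblast markers summed to 92.7 to 95.6, against 49.7 to 52.4. All these sums moved in the direction of the antigen presentation genes, and their part in the result was not tested either.

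Other genes of these pathways were listed from textbook knowledge, and their shares can be read against those of all genes given above. Of 45 further interferon genes tested, 9 were higher and 15 lower in BxPC3, 11 and 10 in MiaPaCa-2, and 0 and 0 in PANC1, with medians of -0.15, 0.06 and -0.05. With ERCC scaling 0 were higher and 41 lower in BxPC3, 1 and 37 in MiaPaCa-2, and 0 and 4 in PANC1. Among them APOL2, a cytosolic apolipoprotein, fell by 1.32 in BxPC3 and 1.04 in MiaPaCa-2, the ubiquitin ligase TRIM56 by 0.93 and 0.87, and TRAFD1, a feedback inhibitor of innate signalling, by 1.05 and 0.87. LGALS3BP, a secreted glycoprotein, was higher by 1.09 and 0.83, and the aminopeptidase LAP3 by 0.76 and 0.85, with ERCC values between -0.10 and -0.45.

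SOCS1, the feedback inhibitor of Janus kinases, differed between lines in the same list. It measured 10.9, 9.2 and 12.7 in THZ1-treated MiaPaCa-2 cells, against 1.05, 1.29 and 1.06 in DMSO cells. In BxPC3 it measured 2.26, 4.19 and 3.55 with THZ1, against 4.36, 3.11 and 3.74 with DMSO, and in PANC1 6.57, 6.86 and 5.94 with THZ1, against 9.47, 7.36 and 5.32 with DMSO. The groups were apart in MiaPaCa-2 and overlapped in the other 2 lines. SOCS1 rose by 2.47 ± 0.19 in MiaPaCa-2 and by 1.53 on the ERCC scale, and its response was higher there than in BxPC3 by 2.62 ± 0.27 (adjusted p = 1.33e-05 by limma), the direction in which IRF1 parted.

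Of 21 further antigen presentation genes tested, 11 were higher and 2 lower in BxPC3, 13 and 3 in MiaPaCa-2, and 0 and 0 in PANC1, with medians of 0.44, 0.52 and 0.09. With ERCC scaling 0 were higher and 11 lower in BxPC3, 0 and 14 in MiaPaCa-2, and 0 and 3 in PANC1. PDIA3, the disulfide isomerase of the peptide loading complex, was higher by 1.07 in BxPC3 and 0.95 in MiaPaCa-2, PSME1, a proteasome activator subunit, by 1.05 and 1.04, and the chaperone CANX by 0.87 and 0.73, all with ERCC values below 0 and no call on that scale. RFXAP, a subunit of the complex that drives class II promoters, fell by 1.62 and 1.02. CD74, the class II invariant chain, fell by 0.66 in MiaPaCa-2, and NLRC5, the class I transactivator, had -0.63 and -0.72 without a call. The zero counts in PANC1 come from limma with all 18 libraries.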

How the data were processed

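Per the labels' protocols, poly(A) RNA was made into stranded TruSeq libraries after ERCC RNA had been added to the extracted total RNA. Per the submitters' processing notes, reads were aligned with STAR to hg19. The counting tool, its strand setting and the treatment of multiply mapped reads are nowhere stated in the labels. The deposited signal values are normalised by the authors: within a library, every value is an integer read total over one shared integer divisor, and 100% of the reads so recovered were whole within 0.001. The table also holds log2 summary columns by the authors, averaged over the 3 lines, which were not used here. The 22 rows without a gene name were left out.

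Values were multiplied by 17.6795 and tested as log2(value + 1) with limma 3.58.1 in R 4.3.3, with means for all 6 groups (12 residual degrees of freedom) and a minimum of 1 in at least 3 libraries. edgeR 4.0.16 and DESeq2 1.42.0 were run on the recovered reads. Only the limma fit was tested on simulated data, drawn with the same spread setting for every gene and with no library that stood apart. The members and the gene lists were chosen with earlier results of these data known. Values are given library by library, by rule, for the 4 highest and 4 lowest differences called in each line at a mean of at least 5, the 3 smallest p-values of each contrast of responses, the 3 widest DMSO differences, and STAT2, IRF1, IRF9 and B2M. One member is counted in the groups but is not reported by name here.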

Additional observations from a re-analysis of the deposited data

Results flagged for a closer look

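The members with the 3 smallest p-values in each contrast of responses between lines are given here (7 members, limma, adjusted over all genes), out of 15, 33 and 29 members called in the 3 contrasts. IRF1 had a response higher in MiaPaCa-2 than in BxPC3 by 1.74 ± 0.17 (SE), with 3 of 3 MiaPaCa-2 libraries above and 3 of 3 BxPC3 libraries below their DMSO libraries. The IFIT1 response was higher in MiaPaCa-2 than in BxPC3 by 1.40 ± 0.25, and the TAP2 response was lower, at -0.83 ± 0.11. Relative to BxPC3, the PANC1 response was higher by 1.87 ± 0.16 for IRF2, by 1.79 ± 0.15 for IFIT3 and by 2.18 ± 0.19 for DDX58. Relative to MiaPaCa-2 it was higher by 1.39 ± 0.15 for IFIT3, by 1.23 ± 0.16 for IRF2 and by 1.32 ± 0.18 for DTX3L. On the ERCC scale all 9 differences had the same sign and were called, the smallest in size at -0.93 for TAP2. Without DMSO replicate 1 of PANC1, the library that stood apart, the 6 comparisons with PANC1 were all still called, with differences between 1.14 and 2.02.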

How the results depend on the processing

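Which scale is used decided the sign of most members called higher. The cause was not tested, but a scale moves all genes of a library together. With ERCC scaling, the difference between THZ1 and DMSO in BxPC3 changed sign to ADAR -0.73, BST2 -0.15, HLA-E -0.16, IFI35 -0.38, IFI6 -0.09, IFITM1 -0.46, IFITM2 -0.03, IFNGR1 -1.16, IFNGR2 -0.77, IRF3 -1.05, ISG15 -0.16, ISG20 -0.87, JAK1 -0.12, OAS3 -0.90, TAP1 -0.52, TAP2 -0.31, TAPBP -0.31, TRIM25 -0.99, TYK2 -0.39 and UBE2L6 -0.67. With ERCC scaling, the difference between THZ1 and DMSO in MiaPaCa-2 changed sign to ADAR -0.88, B2M -0.29, BST2 -0.40, EIF2AK2 -1.04, HLA-B -0.29, HLA-C -0.29, HLA-E -0.67, IFI35 -0.76, IFI6 -0.26, IFIT1 -1.13, IFITM1 -0.30, IFITM2 -0.13, IFITM3 -0.15, IFNGR1 -0.97, IFNGR2 -1.06, IRF1 -0.19, IRF3 -1.09, IRF7 -1.05, ISG15 -0.27, ISG20 -0.87, JAK1 -0.50, OAS3 -0.90, STAT2 -1.04, TAP1 -0.86, TAP2 -1.23, TAPBP -0.61, TRIM25 -0.82, TYK2 -0.67 and UBE2L6 -0.59. With equal library sums, the difference between THZ1 and DMSO in BxPC3 changed sign to ADAR -0.27, IFITM1 -0.02, IFNGR1 -0.71, IFNGR2 -0.33, IRF3 -0.59, ISG20 -0.48, OAS3 -0.44, TAP1 -0.08, TRIM25 -0.53 and UBE2L6 -0.23. With equal library sums, the difference between THZ1 and DMSO in MiaPaCa-2 changed sign to ADAR -0.23, HLA-E -0.03, IFI35 -0.17, IFIT1 -0.56, IFNGR2 -0.43, IRF3 -0.45, ISG20 -0.35, STAT2 -0.43, TAP1 -0.23, TAP2 -0.59, TRIM25 -0.18 and TYK2 -0.03. TRIM25 in BxPC3 turned to -0.08 with DESeq2 factors or DESeq2 and to -0.12 with TMM or edgeR.

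ERCC scaling gave 0 members higher and 34 lower in BxPC3, 0 and 35 in MiaPaCa-2 and 0 and 1 in PANC1, and 5 responses differing between MiaPaCa-2 and BxPC3. Equal sums gave 8 higher and 29 lower in BxPC3, 9 and 22 in MiaPaCa-2 and 0 higher in PANC1. Counts of higher and lower members were 18 and 21 in BxPC3 and 16 and 14 in MiaPaCa-2 with DESeq2 factors, 18 and 22, and 16 and 15 with edgeR, and 18 and 22, and 16 and 16 with DESeq2. The shares of all genes were 27.5% and 26.6% in BxPC3 and 26.7% and 25.2% in MiaPaCa-2 with DESeq2 factors. They were 26.8% and 28.6%, and 27.2% and 26.4% with edgeR, and 29.2% and 27.5%, and 28.5% and 26% with DESeq2. The 1 PANC1 call became 0 with TMM, DESeq2 factors, no minimum, edgeR or a fit of only the groups compared, and 4 with DESeq2. A fit of only the groups compared, with fewer libraries, called 25 MiaPaCa-2 to BxPC3 responses and 24 PANC1 to MiaPaCa-2 DMSO levels. Of all genes it called 16.2% higher and 23.7% lower in the first contrast, and 19.8% and 23.2% in the second.

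Same-numbered libraries correlated at -0.03 to 0.45 over 9 pairs, and 5 of 9 correlated best with their own number. THZ1 replicate 1 did so in all lines, at 0.09 in BxPC3, 0.14 in MiaPaCa-2 and 0.45 in PANC1. With 3 libraries per group these values cannot decide whether the numbers mark pairs, and the main fit left the libraries unpaired. The replicate block gave 22 higher and 20 lower members in BxPC3, 21 and 14 in MiaPaCa-2 and 0 and 0 in PANC1. Leaving out each library in turn gave 22 to 23 higher and 19 to 21 lower members in BxPC3, 18 to 26 and 13 to 16 in MiaPaCa-2, 0 to 6 and 0 to 1 in PANC1, and 10 to 24 MiaPaCa-2 to BxPC3 responses. Over all genes, PANC1 had 42 higher and 35 lower, against 7 and 12 with edgeR, 374 and 365 with DESeq2 and 854 and 205 without its DMSO replicate 1. Depth limits members under 5 normalised counts in DMSO cells, of which MiaPaCa-2 and PANC1 had 9 each.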

Other observations

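Other genes of the further interferon and antigen presentation lists also differed between BxPC3 and MiaPaCa-2, and were chosen after their values were seen. CD274, the checkpoint ligand PD-L1, measured 2.47, 2.5 and 2.74 in THZ1-treated MiaPaCa-2 cells, against 6.88, 7.22 and 7.43 in DMSO cells. In BxPC3 it measured 8.26, 10.9 and 11.7 with THZ1, against 8.34, 7.38 and 9.73 with DMSO. It lay below its DMSO range in MiaPaCa-2, falling by 1.20 on the log2 scale, and overlapped in BxPC3, and the response was lower in MiaPaCa-2 at -1.44 (adjusted p = 0.00034 by limma). SOCS3, a feedback inhibitor of cytokine receptors, had -0.71 in BxPC3 and 1.16 in MiaPaCa-2, with -0.02 in MiaPaCa-2 on the ERCC scale. USP18, which removes ISG15 from its targets, had -1.14 in BxPC3 and 0.42 in MiaPaCa-2, with -0.51 in MiaPaCa-2 on the ERCC scale. Their responses were higher in MiaPaCa-2 by 1.87 and 1.55.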
